A study of Mus musculus with 9 samples.

Results

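The miR-29 family in the mouse is made from 4 hairpin precursors, Mir29a, Mir29b-1, Mir29b-2 and Mir29c, and it was followed here through small RNA sequencing of extracellular vesicles (EVs) from bronchoalveolar lavage fluid (BALF). All entries of the deposited table that carry the name of hairpin mir-29a, mir-29b or mir-29c were taken, whichever arm, genomic copy or isomiR they stood for. This gave 25 of 1308 entries and 4 of 299 hairpins. Of the 25 entries, 8 were mature miRNAs and 17 were isomiRs, which are forms of the same miRNA with a shifted 5′ end. Hairpin mir-29a gave 10 entries, mir-29b-1 gave 4, mir-29b-2 gave 5 and mir-29c gave 6.

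Female C57BL/6J mice with no other allele named, 8 to 10 weeks old, inhaled filtered air (FA), 1 ppm ozone (O3) or 2 ppm O3 for 3 h in a whole-body chamber, and BALF was collected the day after. Each group was 3 pools, with 4 mice in each FA pool and 3 mice in each O3 pool, so that pool size and exposure to O3 cannot be told apart. Levels are in RPMMM, which are reads scaled to the same total of miRNA reads in each pool. A pool measures all EVs of the fluid together, so a change in the number of EVs from one source and a change in the miRNA carried by each EV cannot be told apart.

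A miRNA guides the silencing complex to messenger RNAs that pair with its seed, the bases that follow the first base of its 5′ end. Members of the miR-29 family share 1 seed and are best known as repressors of collagens, elastin and other extracellular matrix genes, and in the lung, low miR-29 in fibroblasts has been linked to fibrosis. The 3p arm is usually described as the guide strand of the family, and the 5p arms as passenger strands that are mostly degraded.

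The mature 3p sequences are shown because the comparisons below rest on telling these near-identical RNAs apart. They are the RefSeq sequences of GRCm38.p6, written 5′ to 3′ with the seed (bases 2 to 8) in capitals.
miR-29a-3p: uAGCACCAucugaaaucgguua
miR-29c-3p: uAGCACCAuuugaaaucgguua
miR-29b-3p: uAGCACCAuuugaaaucaguguu
Counted from 1 at the 5′ end, miR-29a-3p and miR-29c-3p differed by a single substitution, C10U, over 22 bases. miR-29c-3p and miR-29b-3p differed by 3 substitutions, G18A, U21G and A22U, and miR-29b-3p is 23 bases long. The letters AGCACCA stood at bases 2 to 8 of 3 of 1679 mature miRNAs of the RefSeq table (0.179%), which were the 3 sequences above. The last 6 bases of miR-29b-3p, AGUGUU, were described in earlier work as an element that directs this miRNA to the nucleus, and these letters were the last bases of none of the other family members. They ended 2 of the 1679 sequences (0.119%), of which the other was miR-92b-5p.

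The hairpins of miR-29b are shown because they explain why the table cannot separate its genomic copies. Both mature arms are in capitals, the 5p arm first.
Mir29b-1: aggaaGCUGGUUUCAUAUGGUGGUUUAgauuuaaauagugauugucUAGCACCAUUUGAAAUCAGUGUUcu
Mir29b-2: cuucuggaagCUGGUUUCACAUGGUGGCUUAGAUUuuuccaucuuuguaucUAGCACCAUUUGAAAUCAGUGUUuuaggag
The 3p arms were the same letter for letter, and the entries of miR-29b-1-3p and miR-29b-2-3p held identical values in every pool. They are treated as a single miRNA, miR-29b-3p. The 5p arms differ, so miR-29b-1-5p and miR-29b-2-5p were separate measurements.

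The genes lie in a pair of clusters, with an a or c member beside a b member in each. In mm9, Mir29a is at chr6:31012660-31012747 and Mir29b-1 at chr6:31013023-31013093, both on the minus strand, with 275 bases between them and no overlapping gene in the annotation used. Mir29b-2 is at chr1:196863234-196863314 and Mir29c at chr1:196863741-196863828, both on the plus strand, with 426 bases between them. Both of the latter lie in an exon of the long noncoding RNA A330023F24Rik, which is transcribed from the same strand.

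miR-29a-3p made up most of the family in every pool. With miR-29b-3p counted once, entries of mir-29a held between 96.7% and 96.9% of the family's level in FA, between 95.8% and 97.2% after 1 ppm O3 and between 93.6% and 95.2% after 2 ppm O3. Entries of mir-29c held between 1.72% and 2.18%, between 1.19% and 2.81% and between 3.18% and 3.29% in the same order. The 3p arm gave between 98.3% and 100% of the family's level over all 9 pools. All miR-29 entries together were between 1.55% and 2.28% of the miRNA total of a pool.

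The depth was lowest after 2 ppm O3. Steps of 1 read in the low values gave between 535395 and 773068 miRNA reads in FA pools, between 554965 and 860738 after 1 ppm O3 and between 281468 and 300842 after 2 ppm O3. The lowest value above 0 was therefore higher after 2 ppm O3, between 34.3 and 37.3 RPMMM, than in the other pools, between 11.8 and 18.9 RPMMM. Exposures were compared by limma on log2(RPMMM + 1) for 461 entries whose mean passed 50 RPMMM. An entry was called when its level changed 2-fold or more with an adjusted p below 0.05. Fold changes on this scale understate the change of low entries that are above 0 in all pools, and a value of 0 in a single pool can enlarge them. Of the miR-29 entries, 8 passed the filter on the mean and 17 did not, and since miR-29b-3p is listed under both copies the 8 stand for 7 distinct measurements.

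The total to which the pools were scaled also changed its make-up. Entries of miR-2137 rose from a mean of 0.266% of the total in FA to 4.09% after 1 ppm O3 and 19.5% after 2 ppm O3. Those of 4 other hairpins (miR-5115, miR-5109, miR-5105 and miR-5102) together rose from 0.322% to 3.97% and 25.7%. The median log2 fold change of the 461 entries was -0.08 for 1 ppm O3 vs. FA, -0.83 for 2 ppm O3 vs. FA and -0.69 for 2 ppm vs. 1 ppm O3. Levels of the miR-29 entries were therefore also set against each other within a pool, which needs no scaling.

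miR-29a-3p, the main form of the family, varied little between pools in the deposited scaling. Its level was 14441, 18880 and 18199 RPMMM in the FA pools, 12719, 14998 and 14080.1 RPMMM after 1 ppm O3, and 14079, 12478 and 13867 RPMMM after 2 ppm O3. The FA pools reached higher than the others, but the lowest FA pool lay within the range of the 1 ppm pools. Its coefficient of variation over the 9 pools was 15.0%, at place 5 from the lowest of 461 entries, whose median was 50.6%. This place depended on the scaling, and was 4 of 477 with miR-2137 left out of the total (11.8%), 58 of 455 with the median of ratios (20.3%) and 92 of 498 with miR-2137 and the 4 hairpins named above left out (24.2%). By mean level it stood at place 17 of 1308 entries in FA, place 18 after 1 ppm O3 and place 15 after 2 ppm O3. Entries with few reads vary more between pools for that reason alone. The coefficient of variation was not compared among entries of like level.

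Group means of miR-29a-3p were 17173 ± 2391 RPMMM (SD, n = 3) in FA, 13932 ± 1147 RPMMM after 1 ppm O3 and 13475 ± 870 RPMMM after 2 ppm O3. The log2 fold change was -0.30 for 1 ppm O3 vs. FA (SE 0.119, adjusted p = 0.148 from limma). For 2 ppm O3 vs. FA it was -0.34 (95% interval -0.61 to -0.07, adjusted p = 0.0359 from limma), which is under the required fold change. This direction depended on the scaling. The difference was -0.03 when miR-2137 was left out of the total (adjusted p = 0.832 from limma), 0.36 when pools were scaled by the median of ratios (adjusted p = 0.0585 from limma) and 0.52 when both miR-2137 and the 4 hairpins named above were left out (adjusted p = 0.00867 from limma). Under each of these 4 scalings miR-29a-3p stood above the median of all entries, which was -0.83, -0.51, -0.08 and 0.05 in the same order. A scaling divides each pool by 1 number, which moves miR-29a-3p and this median nearly alike. The 4 scalings therefore give a single observation of this position.

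miR-29b-3p, made from 1 hairpin of each cluster, had the largest rise after 2 ppm O3 among the 7 tested measurements. Its level was 46.9, 58.8 and 122 RPMMM in the FA pools, 106, 70.3 and 67.4 RPMMM after 1 ppm O3, and 270.5, 201 and 251 RPMMM after 2 ppm O3. All 3 of the 2 ppm pools lay above all 6 of the others, while FA and 1 ppm pools overlapped. The mean was 75.9 ± 40.4 RPMMM (SD, n = 3) in FA, 81.3 ± 21.6 RPMMM after 1 ppm O3 and 241 ± 35.9 RPMMM after 2 ppm O3, a ratio of means of 3.17 to FA and 2.96 to 1 ppm O3. The values listed under each copy came from about 36.2 to 81.4 reads per pool.

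For miR-29b-3p the log2 fold change was 1.76 for 2 ppm O3 vs. FA (95% interval 0.70 to 2.83, adjusted p = 0.0107 from limma) and 1.58 for 2 ppm vs. 1 ppm O3 (95% interval 0.51 to 2.64, adjusted p = 0.0248 from limma). Both comparisons use the same 2 ppm pools. For 1 ppm O3 vs. FA it was 0.19 (95% interval -0.87 to 1.25, adjusted p = 0.865 from limma), an interval that holds changes of either sign. The rise over FA was called with each of the 9 pools left out in turn, at a log2 fold change between 1.48 and 2.16. The rise over 1 ppm O3 was not called without the second or the third 1 ppm pool, or without the first or the third 2 ppm pool, where the adjusted p from limma reached 0.0738 at a log2 fold change of at least 1.46. Adding isomiRs to their mature entry also ended the call (log2 fold change 1.25, adjusted p = 0.0556 from limma).

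miR-29c-3p, which differs from miR-29a-3p at 1 base, was also highest after 2 ppm O3. Its level was 286, 326 and 367 RPMMM in the FA pools, 398, 146 and 336 RPMMM after 1 ppm O3, and 519, 502 and 569 RPMMM after 2 ppm O3. The 2 ppm pools lay above all others, and the second 1 ppm pool was the lowest of the 9. The mean was 326 ± 40.3 RPMMM (SD, n = 3) in FA, 294 ± 132 RPMMM after 1 ppm O3 and 530 ± 34.9 RPMMM after 2 ppm O3, a ratio of means of 1.62 to FA and 1.81 to 1 ppm O3. About 81 to 289 reads per pool stood behind these values.

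The rise of miR-29c-3p did not pass the thresholds in the deposited scaling. Its log2 fold change was 0.70 for 2 ppm O3 vs. FA (95% interval -0.09 to 1.50, adjusted p = 0.115 from limma). For 2 ppm vs. 1 ppm O3 it was 0.97 (adjusted p = 0.0495 from limma), which is under the required fold change, and for 1 ppm O3 vs. FA it was -0.27 (adjusted p = 0.744 from limma). Without the first 1 ppm pool the rise over 1 ppm O3 was called, at 1.25 (adjusted p = 0.0287 from limma). That rise was also called with miR-2137 left out of the total, at 1.22 (adjusted p = 0.0231 from limma), with the median of ratios, at 1.58 (adjusted p = 0.00713 from limma), and without miR-2137 and the 4 hairpins, at 1.72 (adjusted p = 0.00499 from limma). With the same scalings the change for 2 ppm O3 vs. FA was called, at 1.01 with miR-2137 left out of the total (adjusted p = 0.0381 from limma), 1.40 with the median of ratios (adjusted p = 0.0104 from limma) and 1.56 without miR-2137 and the 4 hairpins (adjusted p = 0.00647 from limma). miR-29b-3p was called under all of these scalings, with log2 fold changes of 2.07, 2.46 and 2.62.

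**Figure D1:**
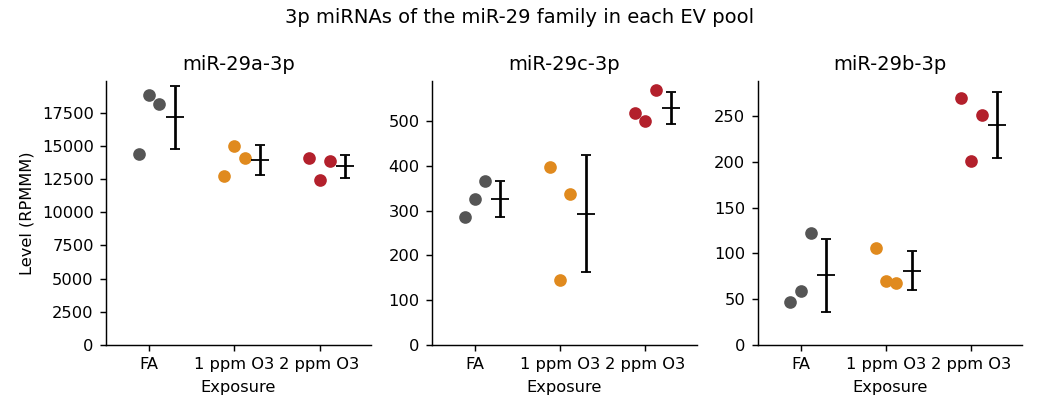
Level of the 3p miRNAs of the miR-29 family in each of the 9 EV pools, in RPMMM on linear axes that start at 0 and differ between panels, by exposure; points are pools and the black mark is the mean with the SD of 3 pools. After 2 ppm O3 all pools of miR-29c-3p (502 to 569 RPMMM) and miR-29b-3p (201 to 270.5 RPMMM) sit above all others, while the FA and 2 ppm pools of miR-29a-3p do not separate fully from those after 1 ppm O3.

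In the plot of levels by pool, the upward step of miR-29b-3p and miR-29c-3p lies between 1 and 2 ppm O3. In the comparison of 2 ppm O3 vs. FA, 2 of the 8 tested miR-29 entries (25%) were called, both of them miR-29b-3p under its copies, against 43.6% of all 461 entries. For 2 ppm vs. 1 ppm O3 the same 2 entries were called, against 33.6% of all entries. None of the 8 was called for 1 ppm O3 vs. FA by limma, with 1 at an unadjusted p below 0.05, against 13.2% of all entries called. In the deposited scaling the share of the family that was called was therefore not above that of the table. This depended on the scaling. For 2 ppm O3 vs. FA with miR-2137 left out of the total, 3 of 8 were called, beside 173 of all 477 entries. With the median of ratios they were 3 of 8 beside 120 of 455. Without miR-2137 and the 4 hairpins they were 3 of 9 beside 126 of 498. For 2 ppm vs. 1 ppm O3 the same numbers of miR-29 entries stood beside 112, 81 and 85 of all entries. In the deposited scaling, called entries that were higher made up 14.3% of the table for 2 ppm O3 vs. FA and 11.3% for 2 ppm vs. 1 ppm O3. Which direction was the more common among called entries depended on the scaling. For 2 ppm O3 vs. FA, 66 were higher and 135 lower in the deposited scaling, 76 and 97 with miR-2137 left out of the total, 87 and 33 with the median of ratios, and 98 and 28 with miR-2137 and the 4 hairpins left out.

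The isomiRs of miR-29a-3p and the miR-29b-1-5p arm were not called in any comparison in the deposited scaling. The form with 1 extra base at its 5′ end, the most abundant isomiR of the family, was 1488, 2007 and 2467 RPMMM in FA, 2003, 2266 and 1863 RPMMM after 1 ppm O3, and 1775, 1195 and 1481 RPMMM after 2 ppm O3. These groups overlapped, and the log2 fold change was 0.07 for 1 ppm O3 vs. FA and -0.41 for 2 ppm O3 vs. FA (adjusted p = 0.120 from limma). The forms that lack 1 or 2 bases at the 5′ end had log2 fold changes between -0.35 and 0.15 over the 3 comparisons. miR-29b-1-5p, a passenger arm, was 106, 153 and 157 RPMMM in FA, 98.2, 139 and 122 RPMMM after 1 ppm O3, and 120, 0 and 298 RPMMM after 2 ppm O3. The second 2 ppm pool was listed at 0 and the third was the highest of all. Its log2 fold change for 2 ppm O3 vs. FA was -2.06 (95% interval -5.94 to 1.83, adjusted p = 0.314 from limma), and 0.47 without the pool listed at 0, so that its direction rests on 1 pool. The size of the change also followed from how that 0 was handled, with -0.99 at a pseudocount of 10 RPMMM and -0.33 when it was set to the lowest value above 0 of its pool.

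**Figure D2:**
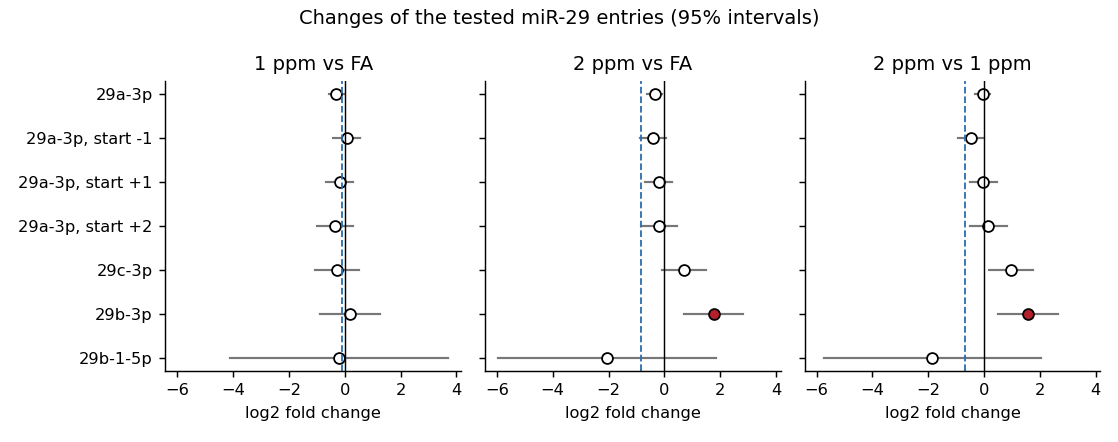
Log2 fold change on the log2(RPMMM + 1) scale of the 7 distinct tested miR-29 measurements in each comparison, with 95% intervals from limma; filled points passed the thresholds, the solid line is 0 and the dashed line is the median of all 461 entries. miR-29b-3p is filled for 2 ppm O3 vs. FA (1.76) and for 2 ppm vs. 1 ppm O3 (1.58), and miR-29b-1-5p has the widest intervals.

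The other 17 entries had means at or below 50 RPMMM. Their highest value in any pool was 81.5 RPMMM, for the form of miR-29a-3p that lacks 3 bases at its 5′ end. Among mature passenger arms, miR-29a-5p was above 0 in 3 of 9 pools (at most 63.2 RPMMM), miR-29c-5p in 4 pools (at most 24.3 RPMMM) and miR-29b-2-5p in 1 pool (47.9 RPMMM). No 2 ppm pool held any of these, but the lowest value above 0 of those pools was higher than miR-29c-5p in any pool, so a level like that of FA was not detectable there at this depth. Mir29a, Mir29b-2 and Mir29c could therefore not be followed through their 5p arms, and miR-29b-1-5p was the only mature 5p arm tested.

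Relative to miR-29a-3p of the same pool, both minor members stood higher after 2 ppm O3. miR-29b-3p was 0.325%, 0.312% and 0.670% of miR-29a-3p in the FA pools, 0.835%, 0.468% and 0.478% after 1 ppm O3, and 1.92%, 1.61% and 1.81% after 2 ppm O3. The 2 ppm pools lay apart from the rest, and the highest FA pool lay above the lower pair of 1 ppm pools. The mean difference between 2 ppm O3 and FA in the log2 ratio was 2.12, with a rise toward the higher concentration in 25 of the 27 pairs that set pools of 2 exposures against each other (p = 0.00952, exact permutation test over all arrangements, two-sided). Adjusted over the ratios of all 460 other tested entries to miR-29a-3p, that p was 0.0456, and 14.1% of those entries rose with an adjusted p below 0.05.

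miR-29c-3p was 1.98%, 1.73% and 2.01% of miR-29a-3p in the FA pools, 3.13%, 0.973% and 2.39% after 1 ppm O3, and 3.69%, 4.02% and 4.10% after 2 ppm O3. The 3 pools of 1 ppm O3 lay on both sides of the FA pools, and the 2 ppm pools lay above all. The log2 ratio was higher by 1.05 after 2 ppm O3 than in FA, with 24 of 27 pairs in that order (p = 0.0214, exact permutation test, two-sided). After adjustment over the 460 entries p was 0.0930, and 15.2% of those entries had 24 or more of 27 pairs rising. Between 2 groups of 3 pools, the exact permutation test gave p = 0.1 for both ratios, for 2 ppm O3 vs. FA and for 2 ppm vs. 1 ppm O3, which is the smallest p that 3 against 3 allows.

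**Figure D3:**
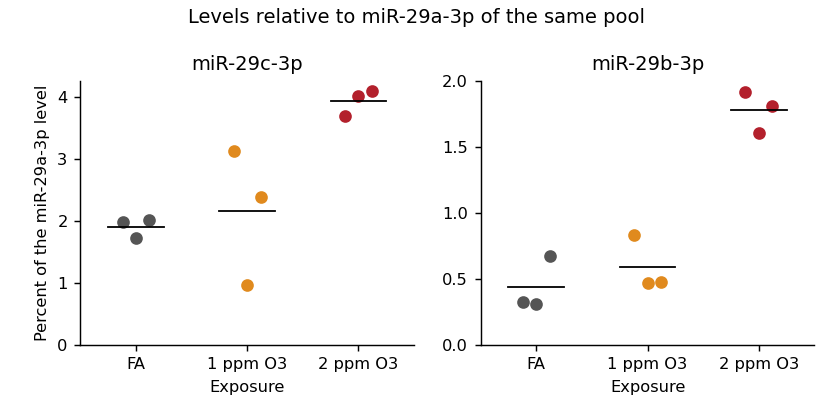
Level of miR-29c-3p and miR-29b-3p as a percent of the level of miR-29a-3p in the same pool, by exposure, on linear axes that start at 0; points are pools and lines are means of 3 pools. The means for miR-29c-3p are 1.91%, 2.16% and 3.94% and those for miR-29b-3p are 0.436%, 0.594% and 1.78% for FA, 1 ppm and 2 ppm O3.

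By level alone, no miR-29 entry followed the order of concentration after adjustment over the 461 entries, of which 28.6% did. miR-29b-3p rose in 24 of 27 pairs and miR-29c-3p in 23 of 27 (exact permutation test, two-sided, p = 0.0214 and p = 0.0417), while miR-29a-3p rose in 3 of 27 (p = 0.0214 by the same exact test). Adjusted over all 461 entries, these p-values were 0.0606 for miR-29b-3p and miR-29a-3p and 0.0965 for miR-29c-3p. The pairs for miR-29a-3p went to 20 of 27 with the median of ratios, while those for miR-29b-3p and miR-29c-3p did not move under any of the scalings.

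**Figure D4:**
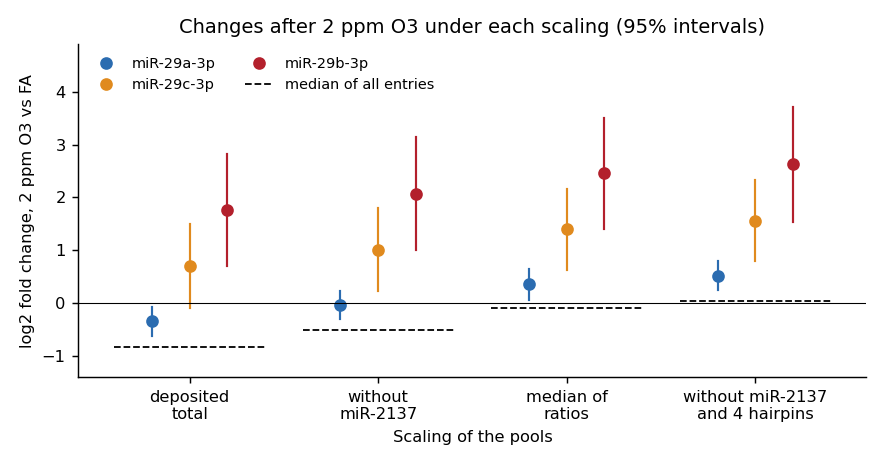
Log2 fold change for 2 ppm O3 vs. FA of miR-29a-3p, miR-29c-3p and miR-29b-3p under 4 ways of scaling the pools, with 95% intervals from limma; the dashed lines are the median of all entries under each scaling. miR-29a-3p goes from -0.34 to 0.52 across the scalings. Each scaling divides a pool by 1 number and so shifts the 3 miRNAs nearly alike, which keeps their order.

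The 3p sequences are close enough that reads could be assigned to the wrong member or split between members, and how mismatched reads were assigned is not given in the sources used here. Neither miR-29b-3p nor miR-29c-3p was above 4.10% of miR-29a-3p in any pool, and their values are uncertain on this account. Read numbers estimated from the depth were whole in 2 of 9 pools for miR-29b-3p, 1 of 9 for miR-29c-3p and 0 of 9 for miR-29a-3p. Among pools above 0, they were whole in 3 of 3 for miR-29a-5p and 4 of 4 for miR-29c-5p. For miR-29b-1-5p they were whole in 5 of 8, and for miR-29b-2-5p in 1 of 1. Sharing of reads between members was not tested. Whether reads that match both copies of miR-29b-3p were divided between the copies was not tested either. If they were, miR-29b-3p counted once is too low.

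The start of miR-29a-3p sets its seed, so the shifted forms are shown with their own seed in capitals, each drawn to the annotated 3′ end. The sign in the entry name was read as the shift of the 5′ end, with minus for an added base.
miR-29a-3p start -1: cUAGCACCaucugaaaucgguua
miR-29a-3p start 0: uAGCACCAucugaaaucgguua
miR-29a-3p start +1: aGCACCAUcugaaaucgguua
miR-29a-3p start +2: gCACCAUCugaaaucgguua
The seed of the form with an added base, UAGCACC, was that of none of the 1679 mature names, and the seeds of the shortened forms matched 1 name each, miR-767 for GCACCAU and miR-6926-3p for CACCAUC. The annotated start held between 83.7% and 85.7% of all miR-29a-3p entries in FA, between 82.4% and 83.2% after 1 ppm O3 and between 84.9% and 86.0% after 2 ppm O3. The start at -1 held between 8.80% and 11.3%, between 11.0% and 13.0% and between 8.24% and 10.7%. The starts at +1 and +2 held between 2.59% and 4.08% and between 1.09% and 1.77% over all pools.

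Use of the annotated start was lowest after 1 ppm O3. The summed isomiRs were 17.1%, 16.7% and 19.5% of miR-29a-3p in FA, 21.4%, 21.0% and 20.3% after 1 ppm O3, and 17.8%, 16.3% and 17.7% after 2 ppm O3. The 1 ppm pools lay above both other groups (exact permutation test, two-sided, p = 0.1 against each, the smallest possible), and 13 of 27 pairs rose with the concentration (p = 1, exact permutation test, two-sided).

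**Figure D5:**
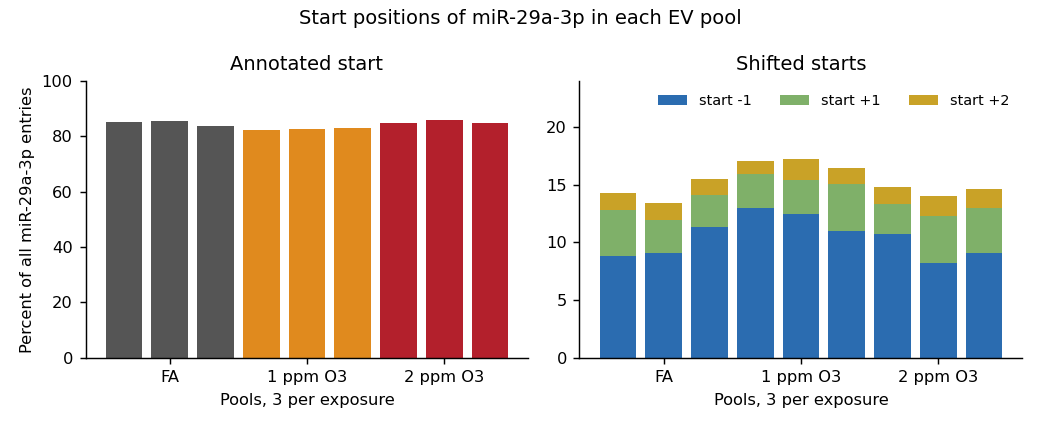
Share of the annotated start (left) and of the starts at -1, +1 and +2 (right) among all miR-29a-3p entries of each pool, in percent, with 3 pools per exposure; both axes start at 0. The annotated start lies between 82.4% and 86.0% in all pools, and the start at -1 is the most used of the shifted forms in each.

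The miRNAs whose profile over the 9 pools was most like that of miR-29a-3p were miR-148a-3p, miR-27a-3p, miR-152-3p, miR-92a-1-3p and miR-125a-3p. Likeness was the root mean square difference of the centred log2(RPMMM + 1) values, and it was 0.209, 0.217, 0.242, 0.250 and 0.253 for these, against a median of 0.624 over 231 mature entries. The family's own members were less like miR-29a-3p, with 0.643 for miR-29c-3p, near that median, and 0.973 for miR-29b-3p. This measure also grows with the noise of low read numbers. miR-29b-3p rests on about 36.2 to 81.4 reads per pool and miR-29c-3p on about 81 to 289, against about 3611 to 14596 for miR-29a-3p. All these profiles share the pools, their depth and their scaling.

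Other miRNAs that lung fibrosis work has linked to the matrix were listed in 2 groups. Those described as promoting matrix deposition (miR-21, miR-199a, miR-145 and miR-34a) had 9 tested entries, of which none was called higher and 1 lower for 2 ppm O3 vs. FA, against 29.3% of all 461 entries called lower. This entry was miR-34a-5p (log2 fold change -1.99, adjusted p = 0.00119 from limma). Their median was -0.74, beside -0.83 for all entries. miR-21-5p, the most abundant of the list, had a log2 fold change of -0.74, under the required fold change. Those described as restraining it were let-7d, miR-200a, miR-200b, miR-200c, miR-26a, miR-30a, miR-27a, miR-133a and miR-486. They had 15 tested entries, of which none was called higher and 10 lower for 2 ppm O3 vs. FA. This was against the same 29.3% of all entries called lower, and their median was -1.18. The 10 were arms or genomic copies of let-7d, miR-200a, miR-200b, miR-200c and miR-26a only. The miR-200 entries are also part of the epithelial sum below.

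let-7d-5p, a repressor of regulators of the mesenchymal state, had the log2 fold change -1.71 for 2 ppm O3 vs. FA, and miR-200b-3p, which restrains the epithelial to mesenchymal transition, had -1.39. The number of restraining entries called lower depended on the scaling, with 5 when miR-2137 was left out of the total (97 of all 477 entries then tested), 2 with the median of ratios (33 of 455) and 1 without miR-2137 and the 4 hairpins (28 of 498). For 1 ppm O3 vs. FA, 2 were called lower, miR-200a-5p at -1.55 and miR-200b-5p at -1.51, against 2.82% of all entries. For 2 ppm vs. 1 ppm O3 none was called higher and 6 lower among the restraining entries, against 22.3% of all entries called lower, and none either way among the promoting ones. In the deposited scaling, miR-29b-3p therefore moved in the opposite direction from the called entries of both lists.

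Some sums of miRNAs that mark cell types differed between exposures in the deposited scaling. For smooth muscle and mesenchymal names the FA range held both others. In this scaling the tested entries as a whole also stood lower after 2 ppm O3 than in FA. Their middle log2 fold change was -0.83, against -0.08 with the median of ratios. The sums were not taken under the other scalings. Whether a lower sum after 2 ppm O3 goes beyond this shift was not tested. The 10 names that mark epithelium, all above 0 in all pools, summed to between 73253 and 81996 RPMMM in FA, between 54762 and 59362 RPMMM after 1 ppm O3 and between 36904 and 39516 RPMMM after 2 ppm O3. miR-126, which marks endothelium, summed to between 81.7 and 245 RPMMM, between 263 and 756 RPMMM and between 668 and 760.1 RPMMM in the same order. The 4 leukocyte names summed to between 1580 and 2206 RPMMM, between 1502 and 2538 RPMMM and between 1109 and 1279 RPMMM, with miR-150 above 0 in 1 pool only. The 4 names of smooth muscle and mesenchymal cells, which include fibroblast miRNAs, summed to between 4742 and 12527 RPMMM, between 5870 and 8814 RPMMM and between 5494 and 5575 RPMMM. The 3 red cell names summed to between 801 and 1757 RPMMM in FA, between 150 and 311 RPMMM after 1 ppm O3 and between 158 and 948 RPMMM after 2 ppm O3, with miR-144 at 0 in all 6 O3 pools. Their part in the changes of miR-29b-3p and miR-29c-3p was not tested, and neither was that of the make-up of the total or of the lower depth after 2 ppm O3.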

How the data were processed

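Small RNA of BALF EVs was sequenced in 9 pools, 3 per exposure, and groups were taken from the exposure given in the labels. The authors removed adapters and ran miRquant 2.0 against mm9 for mature miRNAs and isomiRs, and the deposited values are RPMMM, an RPM over reads mapped to miRNAs, for 1 column per pool. Read depth was recovered from the steps of low values, of which between 67.5% and 83.2% lay on a step, so the values are not whole reads throughout and no count test was run. No value above 0 lay below about 10 reads.

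limma 3.58.1 (R 4.3.3) was run on log2(RPMMM + 1) for 461 entries whose mean passed 50 RPMMM, with 1 mean per exposure and variances allowed to follow the level. Benjamini-Hochberg adjustment was over all 461. The thresholds are those of the study's methods, which name no test for these values. In simulated data for 2 ppm O3 vs. FA with 200 of 461 entries changed 4-fold, 147 were called in the right direction (73.5%) and 3 unchanged entries were called. For ratios and orders of concentration, two-sided exact permutation tests were used. A planned ratio of miR-29a-5p to miR-29a-3p was not computed, since miR-29a-5p was at 0 in 6 of 9 pools. Pools are separate groups of mice, and their number limits the precision.

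Named miRNAs are all family entries, the 5 mature entries most like miR-29a-3p, miR-2137 with the hairpins that change the total, and members of the matrix lists. The family, the lists and the tests were chosen with earlier results of these data known. Hairpin sequences from RefSeq (GRCm38.p6) were placed by exact match in mm9, where all 4 matched. Alternatives covered the pseudocount, the filter, the scaling, isomiRs and copies, the model, and leaving out single pools. Those that add isomiRs to their mature entry or replace values of 0, and other scalings of the coefficient of variation, were chosen after seeing the data. Python 3.11.15 with numpy 2.4.6, pandas 2.3.3, scipy 1.17.1 and matplotlib 3.10.9 made the tables and figures.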

Additional observations from a re-analysis of the deposited data

How the results depend on the processing

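For 2 ppm O3 vs. FA, 2 miR-29 entries were called, and 0 with a filter at a mean of 200 RPMMM, where miR-29b-3p is not tested, or 1 with each mature miRNA taken once, where it is listed once. For 2 ppm vs. 1 ppm O3 the 2 became 0 without a filter (adjusted p = 0.0627 from limma), 0 at the filter of 200 RPMMM, 1 with each mature miRNA once, 0 with isomiRs added, and between 0 and 3 with single pools left out. Under each of the 3 other scalings the 2 became 3 in both comparisons, by the addition of miR-29c-3p. No alternative gave a call for 1 ppm O3 vs. FA. Entries in the order of concentration went from 0 to 1 of 5 at the filter of 200 RPMMM, against 46.7% of all 257 entries. This was miR-29a-3p, with 3 of 27 pairs rising (adjusted p = 0.0459 by the exact test). With single pools left out the number was between 0 and 2 of 8, against between 21.7% and 29.8% of all entries. It was 1 or 2 without the first or the third FA pool, or the first or the second 1 ppm pool. With single pools left out, the difference in log2 ratio to miR-29a-3p ranged from 1.93 to 2.48 for miR-29b-3p and from 0.98 to 1.09 for miR-29c-3p, and that of the isomiRs from -0.086 to 0.027. With 1 pool fewer the exact test has fewer arrangements, and the p adjusted over the 3 ratios passed 0.05 without the first 1 ppm pool or any 2 ppm pool, reaching 0.0857 for miR-29b-3p, and for miR-29c-3p also without the third 1 ppm pool, reaching 0.0911. miR-29a-3p changed sign for 2 ppm O3 vs. FA with the median of ratios (0.36) and without miR-2137 and the 4 hairpins (0.52), and for 2 ppm vs. 1 ppm O3 with the median of ratios (0.57), without miR-2137 (0.21) and without miR-2137 and the 4 hairpins (0.70), with -0.11 to 0.0079 when single pools were left out (above 0 without the second 1 ppm or the second 2 ppm pool). With single pools left out, miR-29b-1-5p ranged from -3.65 to 0.47 for 2 ppm O3 vs. FA and from -3.44 to 0.67 for 2 ppm vs. 1 ppm O3, above 0 only without the second 2 ppm pool. For 1 ppm O3 vs. FA, miR-29c-3p ranged from -0.55 to 0.17 (above 0 without the second 1 ppm pool) and miR-29b-3p from -0.091 to 0.59 (below 0 without the first 1 ppm or the first FA pool). Where not stated, the cause was not tested. Of the alternative log2 fold changes of single miRNAs, 209 kept direction and call, 12 changed sign, 6 lost the call (miR-29b-3p, 2 ppm vs. 1 ppm O3) and 7 gained it (miR-29c-3p). No paired analysis was possible because the labels give the pools no shared replicate numbers.

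Over all entries, 61, 201 and 155 were called in the 3 comparisons in the order above (1 ppm O3 vs. FA first). With each mature miRNA once these were 12, 93 and 65 of 230, and with isomiRs added 16, 110 and 75 of 253. With the median of ratios they were 58, 120 and 81 of 455, and without miR-2137 and the 4 hairpins 58, 126 and 85 of 498.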
